A study of Homo sapiens with 6 samples.

Results

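Knockdown of BCAT1 in SK-N-BE(2) neuroblastoma cells was followed across the 8 genes that start branched-chain amino acid breakdown. These genes are both branched-chain aminotransferases (BCAT1 and BCAT2), the subunits of the branched-chain ketoacid dehydrogenase (BCKDHA, BCKDHB, DBT and DLD), its inactivating kinase (BCKDK) and its activating phosphatase (PPM1K). They were taken by symbol from a table of 64252 Ensembl gene rows, in which each symbol matched 1 row. All 8 were among the 18734 genes that passed the filter on low counts.

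The libraries came from 3 groups, each with 2 libraries. The knockdown groups carried a short hairpin RNA against BCAT1, hairpin 1 (shBCAT1#1) or hairpin 2 (shBCAT1#2), and the third group carried a control hairpin (shControl). Every group thus carried a hairpin. All cells were SK-N-BE(2), a human neuroblastoma line with amplified MYCN, so all results are from a single line. The title of the study concerns the stabilization of N-Myc by BCAT1. The labels do not say that replicates were separate cultures, so p-values measure the spread between these libraries, which may be technical.

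Leucine, isoleucine and valine first lose their amino group to alpha-ketoglutarate, a reversible step carried out by BCAT1 in the cytosol and BCAT2 in mitochondria. The resulting ketoacids are then oxidized irreversibly by the mitochondrial dehydrogenase complex, in which a decarboxylase of BCKDHA and BCKDHB passes the acyl group to the lipoyl arm of DBT, and DLD reoxidizes that arm. Phosphorylation of BCKDHA by BCKDK switches the complex off, and PPM1K removes the phosphate. BCAT1 is restricted to few adult tissues and is expressed in many tumours.

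Total counts per library ran from 32333416 to 39321388. Adrenergic neuroblastoma markers were present, 11 of them at 1 CPM (TMM-scaled counts relative to library size) or more in every library. Summed adrenergic marker levels were 3657 to 3768 CPM with hairpin 1, 3174 to 3287 CPM with hairpin 2 and 4279 to 4304 CPM in control libraries. MYCN is the most abundant of them, and single markers went both ways. CHGB averaged 307 CPM with hairpin 1, 74.1 CPM with hairpin 2 and 128 CPM in control libraries, and PHOX2A 324 CPM with hairpin 1, 338 CPM with hairpin 2 and 548 CPM in control libraries. Summed fibroblast markers, of which 6 of 8 reached 1 CPM in every library, were 859 to 860.2 CPM with hairpin 1, 969 to 973 CPM with hairpin 2 and 1334 to 1343 CPM in control libraries. THY1 made the largest part of that difference, at 399 CPM with hairpin 1, 330.4 CPM with hairpin 2 and 646 CPM in control libraries, whereas COL1A1 had 157 CPM with hairpin 1, 239 CPM with hairpin 2 and 231 CPM in control libraries. Summed epithelial markers were 11.9 to 13.3 CPM with hairpin 1, 19.7 to 20.1 CPM with hairpin 2 and 9.60 to 11.6 CPM in control libraries. No Schwann cell marker of 4 reached 1 CPM in every library, and 1 of 5 endothelial, 1 of 6 leukocyte and 3 of 4 epithelial markers did. The Schwann cell marker SOX10 and the T cell marker CD3E had 0 counts in all libraries. The part of these marker shifts in the results was not tested. In bulk RNA, a smaller share of cells of a type and less RNA per cell cannot be told apart.

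The knockdown removed most BCAT1 transcript, and the other members moved by less. BCAT1, annotated at chr12:24810022-24949459 on the minus strand of hg38, had 55.8 and 55.3 CPM with hairpin 1, 116 and 111 CPM with hairpin 2, and 459 and 475 CPM in control libraries. The groups did not overlap, and hairpin 1 left the least transcript. BCAT1 fell 8.41-fold with hairpin 1 (log2 fold change -3.07 with an SE of 0.04, adjusted p = 1.8e-08 by edgeR) and 4.12-fold with hairpin 2 (-2.04 ± 0.04, where ± gives the SE, edgeR adjusted p = 1.3e-07). Hairpin 2 therefore left 2.04-fold more BCAT1 transcript than hairpin 1 (log2 difference 1.03 ± 0.04, edgeR adjusted p = 7.3e-07). After correction for GC content and transcript length, the values were -3.50 with hairpin 1, -2.64 with hairpin 2 and 0.86 for hairpin 2 minus hairpin 1, all called. Annotated genes on the opposite strand overlapped 0.696% to 1.77% of BCAT1 exon bases. Since the use of strand in counting is not given, reads there cannot be assigned to either strand.

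Of the members with an annotated start window, only BCAT1 had a match to either of the motifs searched, and both matches are shown because they lie in 1 window of the targeted gene. The motifs were CACGTG, the E-box that MYC and MAX proteins bind, and TGATGNAA, the core of the element that ATF4 binds with C/EBP partners when amino acids run short. RefSeq windows (GRCh38.p14) running from 250 bases before to 50 bases after a start were available for 7 of the 8 members, 12 windows in all and 5 for BCAT1. More windows were thus searched for BCAT1 than for any other member, and the genome shares given below are per window. In the sequences, given 5′ to 3′ on the minus strand of chromosome 12, capitals mark the match.
BCAT1 amino acid response core, chr12:24949131-24949160: tgtcttcctgcTGATGCAAtccgctaggtc
BCAT1 E-box, chr12:24949070-24949099: aatccagcccgcCACGTGtactcgccgccg
Counting the first transcribed base as 1, the response core began at position -48 and the E-box at position 15. The motifs were searched on both strands, CACGTG being its own reverse complement, and the matches did not overlap. CACGTG occurred in 7.23% and TGATGNAA in 3.62% of the 34943 windows of this length in the genome table. In GENCODE 29, this window lies within the first exon of a longer BCAT1 transcript. The matches describe the sequence only, and binding was not measured.

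BCAT2, the mitochondrial aminotransferase (chr19:48795062-48811029, minus strand), had 20.4 and 21.9 CPM with hairpin 1, 17.6 and 17.5 CPM with hairpin 2, and 22.3 and 22.4 CPM in control libraries. Its levels were lowest with hairpin 2, and no groups overlapped. The log2 fold change was -0.08 ± 0.08 with hairpin 1 (edgeR adjusted p = 0.42) and -0.35 ± 0.08 with hairpin 2 (edgeR adjusted p = 0.0061). The call with hairpin 2 did not hold after the same correction, where the value was 0.01 (edgeR adjusted p = 0.92). With hairpin 1 the corrected value was 0.20 (edgeR adjusted p = 0.041).

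With little change in BCAT2, the share of BCAT2 in the 2 aminotransferase transcripts was higher in knockdown libraries. Per kilobase of annotated exons, BCAT2 made up 48.6% and 50.6% of the summed BCAT1 and BCAT2 level with hairpin 1, 28.3% and 28.97% with hairpin 2, and 11.2% and 10.9% in control libraries. The order was the same per kilobase of coding sequence, where the shares were 24.6% and 26.1% with hairpin 1, 12.01% and 12.4% with hairpin 2, and 4.17% and 4.04% in control libraries. On CPM without length scaling the mean share was 20.5% in the 4 knockdown libraries and 4.57% in the 2 control libraries. The difference was 15.9 percentage points (two-sided exact permutation test, p = 0.13). That is the smallest p that the test, which doubles the smaller tail, can give with 4 against 2 libraries. It treats the 4 knockdown libraries as interchangeable, although they come from 2 hairpins with different shares. The knockdown of BCAT1 itself fixes the direction of this difference. The summed level of both genes per kilobase of exons was 9.20 and 9.50 CPM with hairpin 1, 13.7 and 13.3 CPM with hairpin 2, and 43.8 and 45.3 CPM in control libraries.

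**Figure D1:**
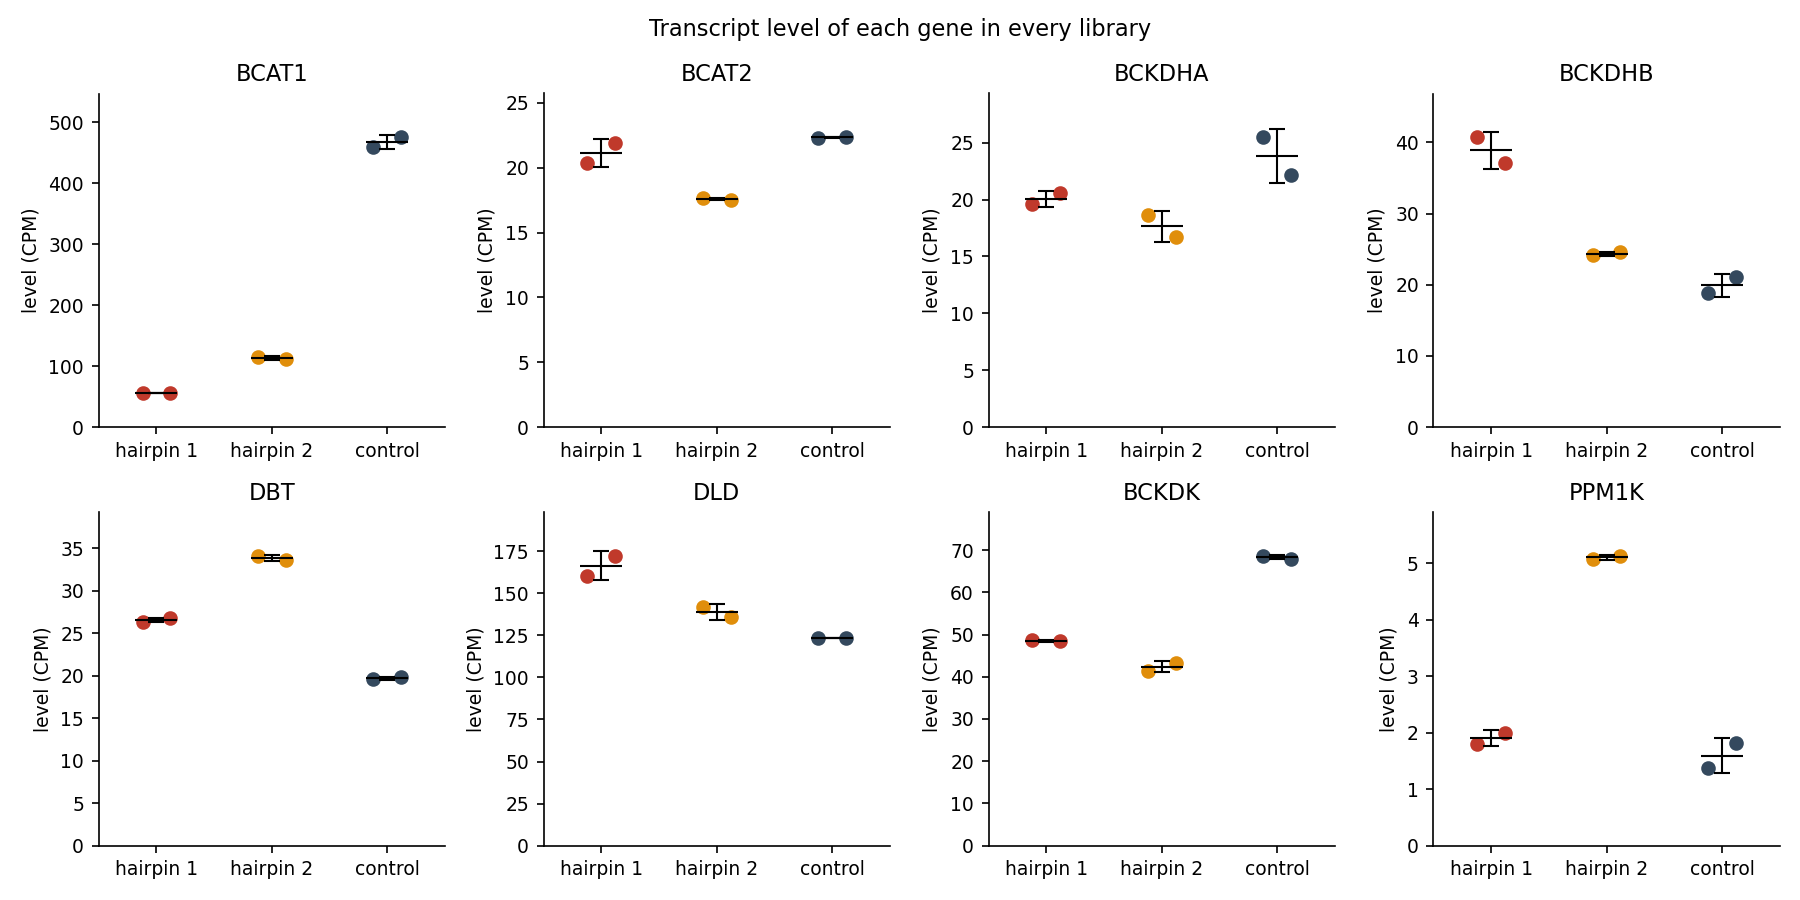
Transcript level in CPM (y axis, from 0, a separate scale for each gene) of the 8 genes in the 2 libraries of each group (points), with the group mean and SD (bars). BCAT1 was far lower with both hairpins (on average 55.5 CPM for hairpin 1 and 113 CPM for hairpin 2, below the 467 CPM of control libraries), BCKDHB was highest with hairpin 1, and DBT and PPM1K were highest with hairpin 2.

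The subunits of the decarboxylase had opposite signs as counted. BCKDHA, the alpha subunit and the target of the regulatory phosphorylation (chr19:41397460-41425005, plus strand), had 19.6 and 20.6 CPM with hairpin 1, 18.6 and 16.7 CPM with hairpin 2, and 25.5 and 22.2 CPM in control libraries. Control libraries were highest, and they also differed most between themselves. The log2 fold change was -0.25 ± 0.10 with hairpin 1 (edgeR adjusted p = 0.067) and -0.43 ± 0.10 with hairpin 2 (edgeR adjusted p = 0.0064). With hairpin 2, the call was lost without replicate 1 of shControl (-0.33, edgeR adjusted p = 0.05) or replicate 2 of shBCAT1#2 (-0.35, edgeR adjusted p = 0.052), and with hairpin 1 it was gained without replicate 2 of shControl (-0.35, edgeR adjusted p = 0.034). After the correction for GC content and length, neither hairpin gave a call (0.04 with hairpin 1, edgeR adjusted p = 0.73, and -0.07 with hairpin 2, edgeR adjusted p = 0.52). A read-through gene on the same strand covers 63.8% of BCKDHA exon bases, but it was given 1 count in every library.

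BCKDHB, the beta subunit (chr6:80106647-80346270, plus strand), had 40.8 and 37.0 CPM with hairpin 1, 24.2 and 24.6 CPM with hairpin 2, and 18.8 and 21.1 CPM in control libraries. Levels with hairpin 1 stood above all other libraries. BCKDHB rose 1.95-fold with hairpin 1 (log2 fold change 0.96 ± 0.08, edgeR adjusted p = 3.1e-05), and it also rose after the correction (0.83, edgeR adjusted p = 5.6e-06). With hairpin 2 the value was 0.29 ± 0.09 (edgeR adjusted p = 0.021), and 0.03 after correction (edgeR adjusted p = 0.73). That call was lost without replicate 1 of shBCAT1#2 (0.30, edgeR adjusted p = 0.076), replicate 2 of shBCAT1#2 (0.28, edgeR adjusted p = 0.083) or replicate 1 of shControl (0.21, edgeR adjusted p = 0.13). The ratio of BCKDHA to BCKDHB in CPM, chosen after its values were seen and not tested, was 0.48 and 0.56 with hairpin 1, 0.77 and 0.68 with hairpin 2, and 1.36 and 1.05 in control libraries. The 4 knockdown libraries lay below both control libraries as counted. The log2 change of this ratio was -1.21 with hairpin 1 and -0.72 with hairpin 2 as counted. After the correction it was -0.79 with hairpin 1 and -0.10 with hairpin 2, so the correction removed most of the change with hairpin 2. These changes of the ratio were not tested.

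DBT, the lipoyl-bearing acyltransferase core (chr1:100186919-100249834, minus strand), had 26.4 and 26.8 CPM with hairpin 1, 34.2 and 33.6 CPM with hairpin 2, and 19.6 and 19.8 CPM in control libraries. No groups overlapped, and hairpin 2 gave the highest level. As counted, DBT rose with hairpin 1 (log2 fold change 0.43 ± 0.07, edgeR adjusted p = 0.00091) and with hairpin 2 (0.78 ± 0.07, edgeR adjusted p = 3.6e-05). After the correction the value was -0.02 with hairpin 1 (edgeR adjusted p = 0.81) and 0.18 with hairpin 2 (edgeR adjusted p = 0.043). DBT combines a low GC content of 39.3% with a longest transcript of 10799 bases, and of the 8 genes it moved most under the correction with each hairpin.

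DLD is the flavoprotein that the branched-chain complex shares with pyruvate dehydrogenase, oxoglutarate dehydrogenase and the glycine cleavage system (chr7:107890970-107931730, plus strand). It had 161 and 172 CPM with hairpin 1, 142 and 136 CPM with hairpin 2, and 123 and 124 CPM in control libraries. Every knockdown library lay above both control libraries, and hairpin 1 was highest. DLD rose with hairpin 1 as counted (0.43 ± 0.05 on the log2 scale, adjusted p = 0.00012 by edgeR) and after the correction (0.28, edgeR adjusted p = 0.00092). With hairpin 2 the value was 0.17 ± 0.05 as counted (edgeR adjusted p = 0.018) and of the other sign after the correction (-0.11, edgeR adjusted p = 0.087). The call with hairpin 2 was lost without replicate 1 of shBCAT1#2 (0.13, edgeR adjusted p = 0.16), replicate 1 of shControl (0.17, edgeR adjusted p = 0.065) or replicate 2 of shControl (0.17, edgeR adjusted p = 0.059).

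BCKDK, the inactivating kinase, was lower with both hairpins, before and after the correction. This gene (chr16:31106107-31112791, plus strand) had 48.7 and 48.4 CPM with hairpin 1, 41.5 and 43.3 CPM with hairpin 2, and 68.7 and 68.0 CPM in control libraries. The groups were apart by several times the spread between replicates. BCKDK fell 1.41-fold with hairpin 1 (log2 fold change -0.49 ± 0.05, edgeR adjusted p = 7.1e-05) and 1.61-fold with hairpin 2 (-0.69 ± 0.05, edgeR adjusted p = 1.6e-05). After the correction the values were -0.24 with hairpin 1 (edgeR adjusted p = 0.0027) and -0.37 with hairpin 2 (edgeR adjusted p = 0.00023). Apart from BCAT1, BCKDK was the only member that was called in the same direction with both hairpins under both fits.

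PPM1K, the activating phosphatase, was the least abundant member and rose with hairpin 2. The gene (chr4:88257620-88284769, minus strand) had 70 and 65 counts with hairpin 1, 205 and 200 counts with hairpin 2, and 52 and 67 counts in control libraries. In CPM these were 1.81 and 2.00 with hairpin 1, 5.08 and 5.14 with hairpin 2, and 1.38 and 1.81 in control libraries. Both hairpin 2 libraries lay above the rest, while hairpin 1 and control libraries overlapped. PPM1K rose 3.20-fold with hairpin 2 (log2 fold change 1.68 ± 0.19, edgeR adjusted p = 0.00013), and after the correction by 1.27 (edgeR adjusted p = 0.00031). With hairpin 1 the value was 0.26 ± 0.20 as counted (edgeR adjusted p = 0.32) and -0.02 after the correction (edgeR adjusted p = 0.93).

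The kinase and the phosphatase act against each other on the same subunit, so their transcripts were set against each other. The ratio of BCKDK to PPM1K in CPM was 27.0 and 24.1 with hairpin 1, 8.16 and 8.43 with hairpin 2, and 49.96 and 37.5 in control libraries. All 4 knockdown libraries lay below both control libraries, and hairpin 2 had the lowest ratios. The mean was 16.9 in the 4 pooled knockdown libraries and 43.8 in control libraries, a difference of -26.8 (two-sided exact permutation test, p = 0.13). This is the smallest p that the test, which doubles the smaller tail, can give here. The test also treats the 4 knockdown libraries as interchangeable, although they come from 2 hairpins with different ratios. The pooled mean lies between the hairpins, which averaged 25.6 with hairpin 1 and 8.29 with hairpin 2. The ratio rests on few PPM1K counts in hairpin 1 and control libraries, 52 to 70 in each. The genes also differ in GC content, with 60.4% for BCKDK and 40.7% for PPM1K. The log2 change of the ratio was -0.75 with hairpin 1 and -2.37 with hairpin 2 as counted, and -0.22 with hairpin 1 and -1.64 with hairpin 2 after the correction.

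**Figure D2:**
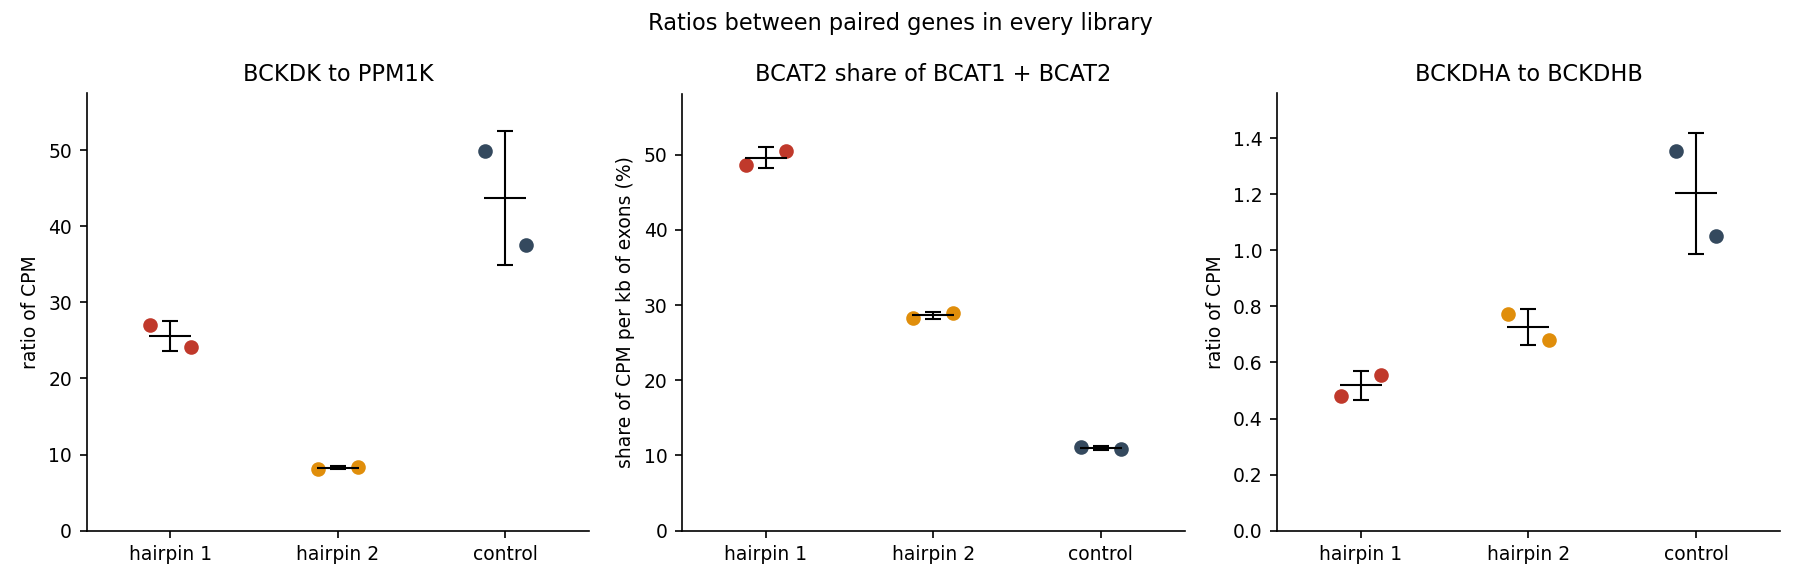
Ratio of BCKDK to PPM1K in CPM (left), share of BCAT2 in the summed BCAT1 and BCAT2 level per kilobase of exons (middle) and ratio of BCKDHA to BCKDHB in CPM (right), for the 2 libraries of each group (points) with group mean and SD (bars). The BCKDK to PPM1K ratio averaged 25.6 with hairpin 1, 8.29 with hairpin 2 and 43.8 in control libraries, and the BCAT2 share averaged 49.6% with hairpin 1, 28.6% with hairpin 2 and 11.01% in control libraries.

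Over the 8 genes, 3 were called higher with hairpin 1 (BCKDHB, DBT and DLD), where 24.2% of all genes tested were called higher, and 2 lower (BCAT1 and BCKDK), where 24.9% were called lower. With hairpin 2, 4 were called higher (BCKDHB, DBT, DLD and PPM1K; background 23.9%) and 4 lower (BCAT1, BCAT2, BCKDHA and BCKDK; background 25.4%). The control libraries are shared by these comparisons, so the counts are not independent of each other. Only the share called lower with hairpin 1 was near the background. Both counts of lower members include BCAT1, whose fall is the knockdown itself, so they are not free of the design. The shares of so few genes were not tested.

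The members divided by base composition in the sign of their smaller changes. BCAT2, BCKDHA and BCKDK have longest transcripts with 60.5%, 59.1% and 60.4% GC, and all of them had negative values with both hairpins. BCKDHB, DBT, DLD and PPM1K have 39.3% to 40.7% GC, and all of them had positive values with both hairpins. BCAT1, with 37.9% GC, was the exception. The values of BCAT2, BCKDHA and PPM1K with hairpin 1 were not called. Protein-coding genes as a whole also had lower values at higher GC content. With hairpin 1, the median log2 fold change was 0.22 for genes with 35 to 40% GC and -0.27 for genes with 60 to 65% GC, and with hairpin 2 the medians of the same bins were 0.36 and -0.32. What gave rise to this slope was not tested.

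A fit with library-specific offsets for GC content and transcript length, over 13907 protein-coding genes, removed between -0.36 and 0.60 on the log2 scale from the members' values. After it, 3 members were called higher with hairpin 1 (BCAT2, BCKDHB and DLD; background 28.1%) and 2 lower (BCAT1 and BCKDK; background 28.3%). With hairpin 2, 2 were called higher (DBT and PPM1K, background 21.4%) and 2 lower (BCAT1 and BCKDK, background 30.1%), near the background. The lower counts again include the targeted gene BCAT1. The members called in the same direction before and after the correction were BCAT1, BCKDHB, DLD and BCKDK with hairpin 1, and BCAT1, DBT, BCKDK and PPM1K with hairpin 2.

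**Figure D3:**
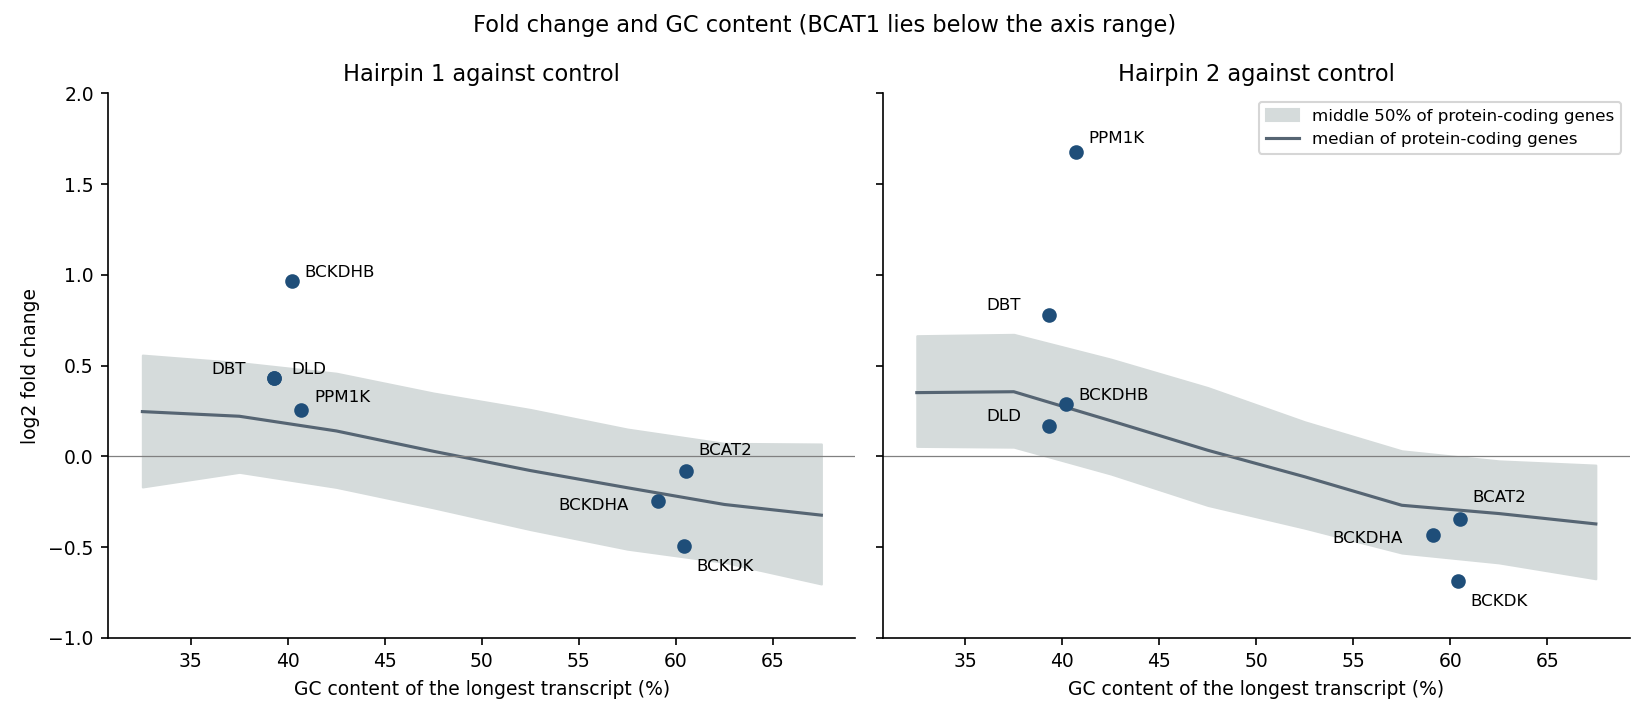
Log2 fold change against control (y axis) by GC content of the longest transcript in percent (x axis), with hairpin 1 (left) and hairpin 2 (right). Points are the 7 members other than BCAT1, the line is the median of protein-coding genes in bins of GC content and the band their middle 50%; BCKDHB with hairpin 1 and PPM1K, DBT and BCKDK with hairpin 2 lay outside the band.

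**Figure D4:**
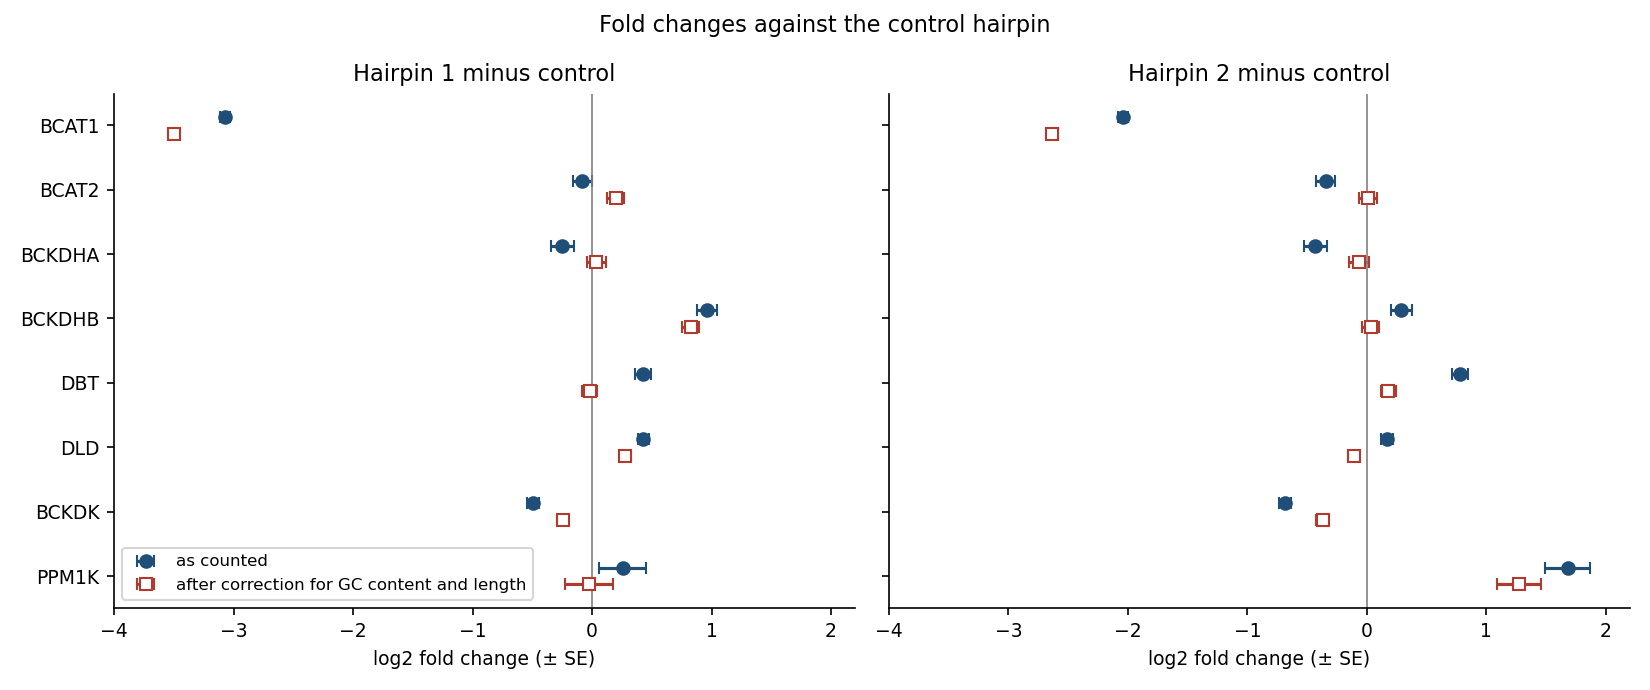
Log2 fold change ± SE of each gene with hairpin 1 (left) and hairpin 2 (right) against control, as counted (filled circles) and after correction for GC content and length (open squares). BCAT1 and BCKDK stayed below 0 with both hairpins, BCKDHB stayed above 0.8 with hairpin 1 and PPM1K above 1.2 with hairpin 2, while DBT with hairpin 1 was 0.43 as counted and -0.02 after correction.

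The hairpins also differed from each other. In the direct comparison of hairpin 2 with hairpin 1, 3 members were called higher (BCAT1, DBT and PPM1K; background 22.9%) and 4 lower (BCAT2, BCKDHB, DLD and BCKDK; background 23.3%). PPM1K was 2.68-fold higher with hairpin 2 than with hairpin 1 (log2 difference 1.42 ± 0.19, edgeR adjusted p = 0.00034), and BCKDHB was 1.60-fold lower (-0.68 ± 0.08, edgeR adjusted p = 0.00025). DBT was higher by 0.35 ± 0.07 (edgeR adjusted p = 0.0027), and DLD was lower (-0.26 ± 0.05, edgeR adjusted p = 0.0022). After the correction, 3 members were called higher (BCAT1, DBT and PPM1K; background 26.8%) and 3 lower (BCAT2, BCKDHB and DLD; background 33.0%). The smallest of these calls depended on single libraries. The call of BCAT2 (-0.26, edgeR adjusted p = 0.023) was lost without replicate 2 of shBCAT1#1 (-0.22, edgeR adjusted p = 0.11) or without replicate 1 (-0.27, edgeR adjusted p = 0.099) or replicate 2 (-0.26, edgeR adjusted p = 0.097) of shBCAT1#2. The call of BCKDK (-0.20, edgeR adjusted p = 0.013) was lost without replicate 1 of shBCAT1#1 (-0.19, edgeR adjusted p = 0.06) or of shBCAT1#2 (-0.17, edgeR adjusted p = 0.075).

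The levels of the genes relative to each other were read per kilobase of annotated exons. In control libraries BCAT1 was highest at 39.7 ± 1.00 CPM per kilobase (SD, n = 2), followed by DLD at 23.3, BCKDK at 17.6 and BCKDHA at 9.15. BCAT2 (4.91) and BCKDHB (4.90) came next and overlapped between libraries, then DBT at 1.74 and PPM1K at 0.14. With hairpin 1, DLD led at 31.4 CPM per kilobase, and BCAT1 at 4.71 was level with BCAT2 at 4.64, whose libraries it overlapped. With hairpin 2, BCAT1 at 9.62 stood between BCKDK at 10.9 and BCKDHA at 6.79. The place of BCAT1 depends on the length used, since its exons span 11775 bases but its coding sequence 1194. Per kilobase of coding sequence BCAT1 had 46.5 CPM with hairpin 1, in the second place after DLD at 109, and 94.9 CPM with hairpin 2, above DLD at 90.9.

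Downstream of the dehydrogenase, the 22 listed catabolic genes were all tested, and 12 were called higher and 4 lower with hairpin 1, with a median log2 fold change of 0.20, where 24.2% of all genes were called higher and 24.9% lower with a median of -0.01. With hairpin 2, 7 were called higher and 5 lower, with a median of 0.10, where 23.9% of all genes were called higher and 25.4% lower, also with a median of -0.01. After the correction, 14 were called higher and 4 lower with hairpin 1 (median 0.17, background 28.1% higher and 28.3% lower). With hairpin 2, the corrected fit called 7 higher and 5 lower (median 0.08, background 21.4% higher and 30.1% lower). ACADSB, which oxidizes the acyl-CoA from isoleucine, averaged 25.3 CPM with hairpin 1, 21.5 CPM with hairpin 2 and 14.3 CPM in control libraries (log2 fold change 0.82 with hairpin 1, edgeR adjusted p = 1.7e-04, and 0.58 with hairpin 2, edgeR adjusted p = 0.0012). HSD17B10, a later dehydrogenase of the isoleucine route, rose by 0.50 with hairpin 1 and 0.53 with hairpin 2, and by 0.95 with hairpin 1 and 1.03 with hairpin 2 after the correction. MMUT, the mutase that feeds propionate carbon into succinyl-CoA, rose by 0.53 with hairpin 1 and 0.64 with hairpin 2, and by 0.38 with hairpin 1 and 0.35 with hairpin 2 after the correction. ACADSB was then called with hairpin 1 (0.54) and not with hairpin 2 (0.17). HADHB, the thiolase subunit of the trifunctional protein, rose as counted by 0.26 with hairpin 1 and 0.12 with hairpin 2, and was 0.22 with hairpin 1 and -0.0031 with hairpin 2 after correction. ECHS1, the enoyl-CoA hydratase, fell as counted (-0.57 with hairpin 1 and -0.34 with hairpin 2), but after correction it was -0.20 with hairpin 1 and 0.12 with hairpin 2. Other catabolic genes, named after their values were seen, were called in opposite directions with the hairpins. MCCC1 had -0.26 with hairpin 1 and 0.92 with hairpin 2, whereas MCCC2 had 0.49 with hairpin 1 and -0.53 with hairpin 2. PCCB had 0.34 with hairpin 1 and -0.37 with hairpin 2, and IVD 0.22 with hairpin 1 and -0.18 with hairpin 2. These genes kept their signs and calls after correction. STAG1 overlaps 22.1% of PCCB exon bases on the opposite strand.

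Among transporters of branched-chain amino acids and their ketoacids, 12 of 15 were tested. With hairpin 1, 5 were called higher (background 24.2%) and 3 lower (background 24.9%), with a median of 0.20 against -0.01 for all genes. With hairpin 2, 5 were called higher (background 23.9%) and 2 lower (background 25.4%), with a median of 0.09 against -0.01. After the correction, 6 were called higher (background 28.1%) and 4 lower (background 28.3%) with hairpin 1, with a median of 0.21. The corrected counts with hairpin 2 were 5 higher (background 21.4%) and 2 lower (background 30.1%), with a median of 0.09. SLC7A5, the light chain of the large neutral amino acid exchanger, averaged 602.5 CPM with hairpin 1, 359 CPM with hairpin 2 and 332 CPM in control libraries. It rose by 0.86 with hairpin 1 (edgeR adjusted p = 1.2e-06) and by 0.11 with hairpin 2 (edgeR adjusted p = 0.040), and after correction by 0.97 with hairpin 1 and 0.28 with hairpin 2. SLC7A6, another amino acid exchanger, rose by 0.49 with hairpin 1 and 0.52 with hairpin 2, and after correction by 0.30 with hairpin 1 and 0.28 with hairpin 2, but 44.4% of its exon bases overlap SLC7A6OS on the opposite strand.

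The sister dehydrogenase complexes, which share DLD, and the lipoylation genes had 26 of 27 listed members tested. With hairpin 1, 8 were called higher and 9 lower (median -0.07), where the background was 24.2% higher and 24.9% lower. With hairpin 2, 6 were called higher and 7 lower (median -0.15), which is near the background of 23.9% higher and 25.4% lower. After the correction, 7 were called higher and 7 lower with hairpin 1, near the background of 28.1% higher and 28.3% lower. With hairpin 2, the corrected fit called 4 higher and 11 lower (background 21.4% higher and 30.1% lower). PDP2, a phosphatase that activates pyruvate dehydrogenase as PPM1K does the branched-chain complex, averaged 30.3 CPM with hairpin 1, 25.9 CPM with hairpin 2 and 11.98 ± 3.89 CPM in control libraries (SD, n = 2; log2 fold change 1.34 with hairpin 1, edgeR adjusted p = 3.1e-04, and 1.11 with hairpin 2, edgeR adjusted p = 8.8e-04). Of the opposing kinases, PDK2 fell (-0.38 with hairpin 1 and -0.65 with hairpin 2) and so did PDK3 (-0.31 with hairpin 1 and -0.43 with hairpin 2). A further kinase, PDK1, rose with hairpin 1 (1.27, edgeR adjusted p = 3.7e-06) and had 0.15 with hairpin 2 (edgeR adjusted p = 0.12). After correction PDP2 was still called (1.09 with hairpin 1 and 0.78 with hairpin 2), as was PDK3 (-0.48 with hairpin 1 and -0.68 with hairpin 2). PDK2 was then called with hairpin 2 (-0.42) and not with hairpin 1 (-0.20), and PDK1 was called in opposite directions (0.77 with hairpin 1 and -0.48 with hairpin 2). The phosphatase PDP1 rose with hairpin 1 (0.67, edgeR adjusted p = 2.3e-04) and had 0.05 with hairpin 2 (edgeR adjusted p = 0.66), and after correction it was called in opposite directions (0.49 with hairpin 1 and -0.24 with hairpin 2). PDPR, a regulatory subunit of that phosphatase, had -0.57 with hairpin 1 and 0.50 with hairpin 2, both called. The kinase PDK4 averaged under 1 CPM in each group and was not called with either hairpin. SAMD14 overlaps 38.6% of PDK2 exon bases on the opposite strand. PDHX, the binding protein that anchors DLD in pyruvate dehydrogenase, rose by 0.50 with hairpin 1 and 0.44 with hairpin 2. BOLA3, an iron-sulfur cluster factor needed to make lipoate for DBT and its counterparts, had log2 fold changes of -0.85 with hairpin 1 and -0.51 with hairpin 2, both called as counted and after correction.

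**Figure D5:**
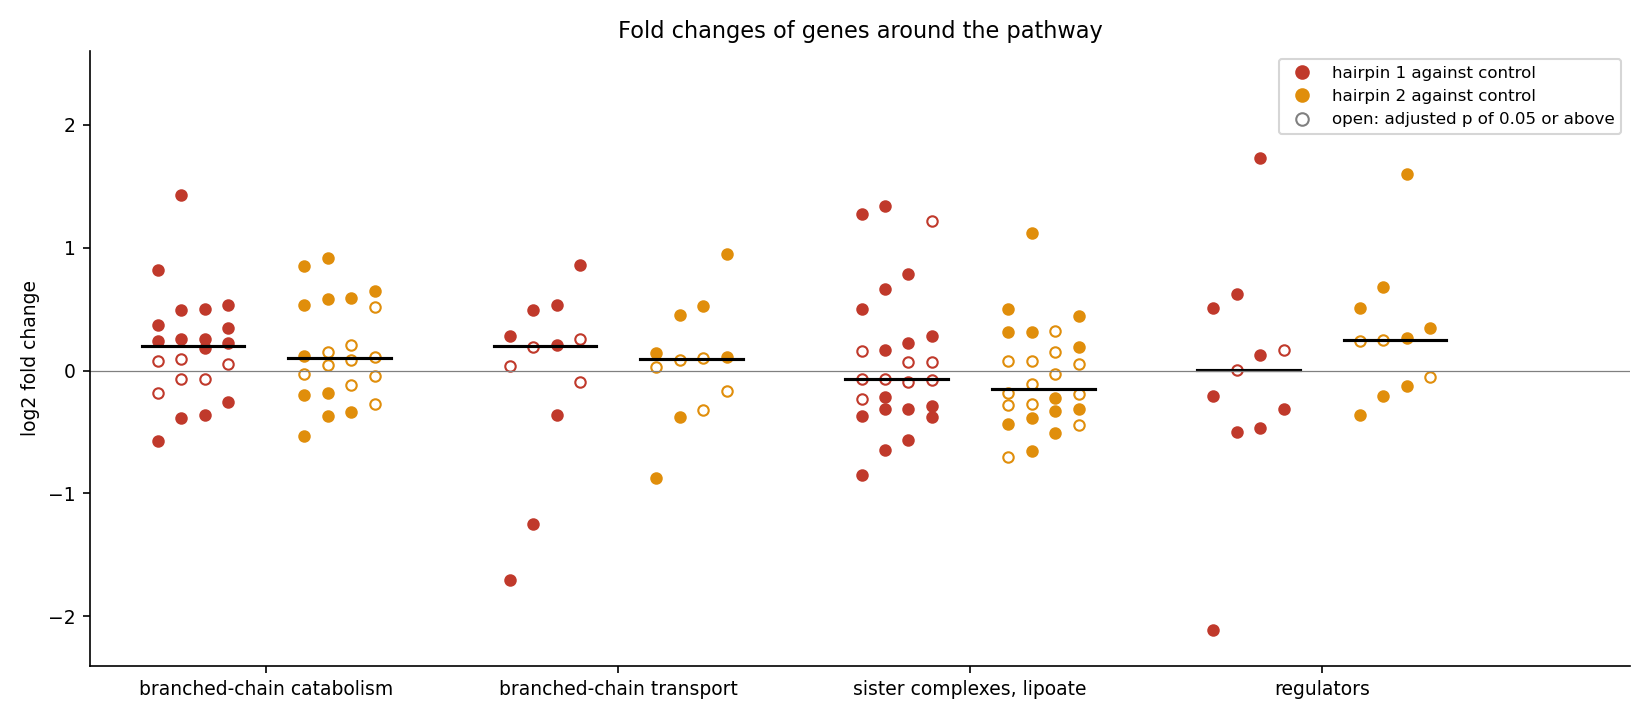
Log2 fold change against control (y axis) of the tested genes of 4 lists, with hairpin 1 (red) and hairpin 2 (orange); each point is a gene, filled where the edgeR adjusted p is under 0.05, and black lines are list medians. Genes of every list lay on both sides of 0, and the catabolic list had medians of 0.20 with hairpin 1 and 0.10 with hairpin 2.

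Of 12 listed regulators and substrates tied to the members, 11 were tested. With hairpin 1, 4 were called higher (background 24.2%) and 5 lower (background 24.9%), with a median of 0.00. After the correction these were 3 higher (background 28.1%) and 3 lower (background 28.3%), with a median of 0.12. With hairpin 2, 5 were called higher (background 23.9%) and 3 lower (background 25.4%), with a median of 0.25. The corrected counts with hairpin 2 were 6 higher (background 21.4%) and 2 lower (background 30.1%), with a median of 0.29. MYCN had 1821 and 1828 CPM with hairpin 1, 1702 and 1816 CPM with hairpin 2, and 2251 and 2271 CPM in control libraries. As counted it fell by 0.31 with hairpin 1 (edgeR adjusted p = 3.8e-04) and by 0.36 with hairpin 2 (edgeR adjusted p = 1.6e-04). Neither call held after correction, where the value was -0.10 with each hairpin (edgeR adjusted p = 0.050 with hairpin 1 and 0.067 with hairpin 2). MYCNOS overlaps 3.77% of MYCN exon bases on the opposite strand. MSI2, an RNA-binding protein known to bind BCAT1 transcripts in leukaemia, rose by 0.63 with hairpin 1 and 0.51 with hairpin 2, and after correction by 0.49 with hairpin 1 and 0.37 with hairpin 2. ACLY, the citrate lyase that BCKDK and PPM1K also act on, fell by 0.47 with hairpin 1 and 0.13 with hairpin 2, and after correction by 0.47 with hairpin 1 and 0.11 with hairpin 2. HNRNPC, an RNA-binding protein, fell by 0.21 with each hairpin, and after correction by 0.41 with hairpin 1 and 0.54 with hairpin 2. HIF1A, named after its values were seen, averaged 98.5 CPM with hairpin 1, 512 CPM with hairpin 2 and 426.5 CPM in control libraries. It fell by 2.11 with hairpin 1 (edgeR adjusted p = 7.1e-08), and with hairpin 2 it had 0.26 as counted (edgeR adjusted p = 8.6e-04) and -0.08 after correction (edgeR adjusted p = 0.080).

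Genes nearest to BCAT1 in their log2 CPM change from the control mean were found by the root mean square difference over the 6 libraries, among 10999 genes. TGM2, a transglutaminase, was nearest at 0.308, followed by the chemokine CCL2 at 0.546, the urokinase PLAU at 0.569, LRRC55 at 0.637 and BASP1 at 0.658. TGM2 averaged 26.7 CPM with hairpin 1, 33.2 CPM with hairpin 2 and 162 CPM in control libraries. Its log2 difference between hairpin 2 and hairpin 1 was 0.32 (edgeR adjusted p = 0.0011), smaller than the 1.03 of BCAT1. Unlike BCAT1, CCL2 was lower with hairpin 2 (64.5 CPM) than with hairpin 1 (79.0 CPM; log2 difference -0.29, edgeR adjusted p = 0.0047). LRRC55 also averaged less with hairpin 2 (7.29 CPM) than with hairpin 1 (8.57 CPM), a difference that was not called (edgeR adjusted p = 0.096). PLAU, like BCAT1, was lowest with hairpin 1, averaging 7.98 CPM with hairpin 1, 19.8 CPM with hairpin 2 and 46.3 CPM in control libraries, although C10orf55 overlaps 31.1% of its exon bases on the opposite strand.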

How the data were processed

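RNA of 6 SK-N-BE(2) libraries was isolated with TRIzol and prepared with a TruSeq kit, per the labels. The deposited values are whole-number counts per Ensembl gene with no normalization. The submitters' processing notes list HISAT2 2.2.0, StringTie and hg38. Not given in the sources used here were the StringTie version, annotation, counting options and strand.

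The quasi-likelihood F test of edgeR 4.0.16 (R 4.3.3) was run on the counts after filterByExpr (minimum count 10, by group) and TMM scaling, in 1 model over all 6 libraries with 3 residual degrees of freedom. P-values are two-sided and Benjamini-Hochberg adjusted over 18734 genes, with calls made below 0.05. Those of the corrected fit were adjusted over its 13907 protein-coding genes. Each SE comes from a fold change and its F value. Levels are TMM-scaled CPM. Shares and ratios were compared with exact permutation tests (scipy 1.17.1). The test script was tested on simulated data.

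GENCODE 29 (GRCh38) supplied GC content, lengths, coordinates and exon overlaps. For the corrected fit, the log2 CPM of each gene was taken relative to its mean over the 6 libraries. Smooth trends of these values on GC content and transcript length (mgcv 1.9.3) entered as offsets for each library. Other alternatives were RLE scaling, other low-count filters, DESeq2 1.42.0, limma-voom (limma 3.58.1), a replicate block, a fit of the compared groups alone, leaving out single libraries, and a fold threshold of 1.5. Protein-coding genes without correction were added after seeing the data.

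Members and lists were chosen with earlier results of these data known. The members and MYCN are always named. Of each list, up to 5 genes called in the same direction with both hairpins at a mean of at least 5 CPM are named, by the size of their mean change, with PDK and PDP genes as counterparts of BCKDK and PPM1K. For BCAT1, the 5 most similar genes are named.

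Replicates were not copies of each other, with a mean chi-square per gene of 6.68 for hairpin 1, 5.86 for hairpin 2 and 8.60 for control, where sampling noise gives about 1. A listed marker gene is not reported here.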

Additional observations from a re-analysis of the deposited data

Results flagged for a closer look

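In 7 of the 8 genes the effect of hairpin 2 differed from that of hairpin 1 in the direct comparison (edgeR quasi-likelihood test with Benjamini-Hochberg adjustment, log2 difference hairpin 2 minus hairpin 1). Of all genes tested, 22.9% were called higher and 23.3% lower in the same comparison. The differences were 1.03 for BCAT1 (adjusted p = 7.3e-07), 1.42 for PPM1K (adjusted p = 0.00034) and 0.35 for DBT (adjusted p = 0.0027). They were -0.68 for BCKDHB (adjusted p = 0.00025), -0.26 for DLD (adjusted p = 0.0022), -0.26 for BCAT2 (adjusted p = 0.023) and -0.20 for BCKDK (adjusted p = 0.013). After correction for GC content and length the call of BCKDK was lost (-0.13, adjusted p = 0.06), and the other 6 were called in the same direction. The hairpins also differ in the BCAT1 transcript they left and in the summed fibroblast and adrenergic marker levels, and the part of either in these differences was not tested.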

How the results depend on the processing

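Over the alternatives without GC correction, 332 of 360 values of single members kept their direction and their side of the threshold, 26 lost and 2 gained a call, and 0 reversed. Of 48 values with the correction for GC content and length, alone or with a replicate block, 12 reversed. These were BCAT2 with hairpin 1 (0.20, and 0.20 with the replicate block), BCAT2 with hairpin 2 (0.0095 and 0.0102), BCKDHA with hairpin 1 (0.0371 and 0.0388), DBT with hairpin 1 (-0.0211 in both), DLD with hairpin 2 (-0.11 in both) and PPM1K with hairpin 1 (-0.024 and -0.0179). Members called with hairpin 2 numbered 8, against 4 with the correction and 3 with the correction and replicate block. All genes called with hairpin 2 were 9236 of 18734 as counted. They were 7174 of 13907 with the correction and 7099 of 13907 with the replicate block added. Leaving out a hairpin 2 or control library left 1 library in that group and lowered the count of members called with hairpin 2. The count of all genes called was lower in the same fits. Against a fold of 1.5, members called numbered 2 with hairpin 1, 3 with hairpin 2 and 2 between hairpins. Genes called numbered 1769, 1397 and 1774 of 18734 in the same order, against 9199, 9236 and 8650 without the fold threshold. In the same order, this threshold left 0, 2 and 4 catabolic genes, 2, 1 and 3 transporters, 4, 1 and 3 genes of sister complexes, and 2, 1 and 1 regulators. Called transporters and regulators with hairpin 2 were also fewer without a hairpin 2 or control library, as were all genes called. The cause of these shifts was not tested.

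Added to the correction, the replicate block ended the calls of BCAT2 with hairpin 1 (edgeR adjusted p = 0.06), DBT with hairpin 2 (0.066) and BCAT2 between hairpins (0.07). The replicate block alone changed no member count (5 with hairpin 1, 8 with hairpin 2 and 7 between hairpins) and gave 8802, 8841 and 8218 genes called. The replicate numbers did not pair the libraries (correlations of deviations -0.033 to 0.004). Summed rows of a shared symbol were not run, as each member matched 1 row. PPM1K had the fewest counts and the largest SE of the members.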
